A study of Homo sapiens with 6 samples.

Results

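The genes described here encode 8 matricellular proteins, CCN1, CCN2, THBS1, THBS2, THBS3, SPP1, SPARC and TNC, out of 58219 genes in the count files. They were picked by name as members of the CCN, thrombospondin, osteopontin, SPARC and tenascin families, with their difference between the libraries already known. Their values are therefore a description of these libraries, and no p-value is given for them. RNA came from SNU-449, an established line of human hepatocellular carcinoma cells. The 6 libraries are polyadenylated RNA, sequenced with strand kept, from cells that stably express either wild-type Yes (Yes WT, 3 libraries) or the gatekeeper mutant Yes T348I (3 libraries). Dasatinib at 100 nM, a drug that blocks ABL and SRC family kinases, was given to both groups. Whether a line is 1 clone or a pool, and whether its 3 libraries come from 3 cultures, is not in the labels. The p-values given for other genes therefore measure the spread between these libraries alone, which may be technical. None of the 6 libraries was without dasatinib, so differences that depend on the drug cannot be told apart from those that do not.

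Matricellular proteins are secreted into the matrix but do not build its scaffold. They bind integrins, syndecans, CD44, CD47 and LRP1 on cells and bind growth factors and collagens in the matrix, and so alter adhesion and signalling. CCN1 and CCN2 are textbook targets of the coactivators YAP and TAZ, which act through TEAD factors and respond to SRC family kinases such as Yes. CCN2 and THBS1 are known from liver fibrosis, where THBS1 can activate latent TGF-beta, and SPP1 (osteopontin) from liver cancer, where it is a secreted tumour product. The comparison asks which transcripts differ when Yes carries a change of the residue that lines the drug pocket.

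Promoter sequences are shown first, as a description. A link between them and the rises and falls below was not tested. The RefSeq table (GRCh38.p14) gave a window of 250 bases before and 50 after the start for 7 of the 8 genes, THBS3 with 2 starts. CCN1 had no window in it. The letters GGAATG, the core of the TEAD motif, were searched on both strands and are in capitals, also where they read CATTCC because the match lies on the opposite strand. The windows of the most strongly raised of the 7 genes (CCN2), of the thrombospondins that moved in opposite directions (THBS1 and THBS2) and of SPP1 are given 5′ to 3′ on the strand of the gene. CCN2 is at chr6:131951323-131951622 (minus strand), THBS1 at chr15:39580829-39581128 (plus strand), THBS2 at chr6:169253797-169254096 (minus strand) and SPP1 at chr4:87975464-87975763 (plus strand).
CCN2: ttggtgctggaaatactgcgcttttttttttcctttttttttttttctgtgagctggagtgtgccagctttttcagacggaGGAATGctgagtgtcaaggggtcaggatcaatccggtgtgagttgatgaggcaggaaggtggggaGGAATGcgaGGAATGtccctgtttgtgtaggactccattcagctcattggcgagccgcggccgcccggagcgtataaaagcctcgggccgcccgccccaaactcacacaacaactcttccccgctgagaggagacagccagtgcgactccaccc
THBS1: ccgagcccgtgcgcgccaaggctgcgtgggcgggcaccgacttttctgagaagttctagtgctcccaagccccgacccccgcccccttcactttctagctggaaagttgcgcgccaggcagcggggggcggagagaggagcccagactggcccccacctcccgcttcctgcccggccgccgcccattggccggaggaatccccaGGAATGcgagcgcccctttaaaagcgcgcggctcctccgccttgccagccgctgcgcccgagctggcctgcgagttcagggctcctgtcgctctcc
THBS2: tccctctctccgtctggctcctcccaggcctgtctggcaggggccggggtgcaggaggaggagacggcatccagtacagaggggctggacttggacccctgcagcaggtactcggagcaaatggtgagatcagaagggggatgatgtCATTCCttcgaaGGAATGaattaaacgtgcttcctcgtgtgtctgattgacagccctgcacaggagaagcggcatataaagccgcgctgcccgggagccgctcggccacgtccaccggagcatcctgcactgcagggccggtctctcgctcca
SPP1: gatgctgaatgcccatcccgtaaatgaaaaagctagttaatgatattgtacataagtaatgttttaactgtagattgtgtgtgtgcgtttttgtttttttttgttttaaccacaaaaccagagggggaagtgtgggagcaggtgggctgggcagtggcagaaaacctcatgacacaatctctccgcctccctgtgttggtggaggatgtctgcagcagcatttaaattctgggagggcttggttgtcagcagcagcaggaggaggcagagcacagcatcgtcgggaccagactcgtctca

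CCN2 held 3 matches, whose first bases lie at -169, -104 and -95 from the start, all on the strand of the gene. THBS1 held 1 match, at -46. THBS2, whose transcript was lower in Yes T348I, held 2, at -103 on the opposite strand and at -91 on its own. SPARC held 1, at -17 on the opposite strand. The windows of SPP1, TNC and both starts of THBS3 held none. Of the 35116 windows in the table, 14.0% held at least 1 match, 1.37% at least 2 and 0.128% at least 3. The AP-1 motif TGANTCA (7.71% of windows) and the CArG box of SRF (1.29% of windows) were searched on both strands too and were in none of the windows of the 7 genes, so no match overlapped another motif. A match is a description of these letters and not a measured binding site.

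**Figure D1:**
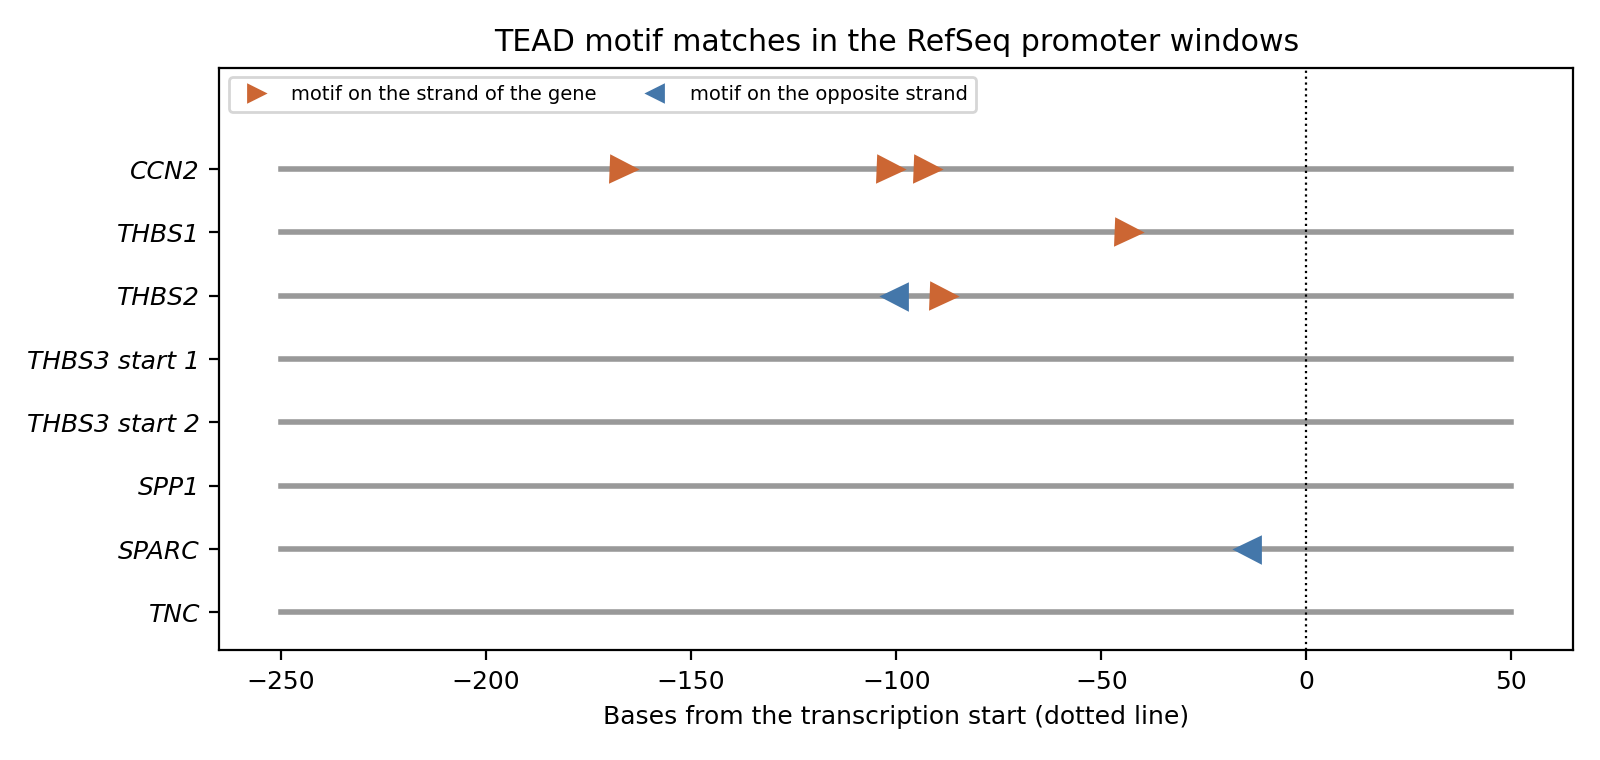
Positions of TEAD motif matches in the 300 bases around the RefSeq start of 7 matricellular genes. The x axis is distance from the start in bases, and arrowheads show the strand of the match. Matches are in CCN2 (3), THBS2 (2), THBS1 (1) and SPARC (1).

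Gene totals ran from 14360137 to 19608763 counts per library, and 14723 genes had enough counts to be tested. All 8 members did, with 124 to 30721 counts in any library. YES1 was at 364 ± 6.17 CPM (counts scaled to the TMM-adjusted library size, SD, n = 3) in Yes WT against 409 ± 26.2 in Yes T348I (log2 ratio 0.17 ± 0.04 SE, edgeR adjusted p = 9.94e-05). These reads can come from the native and the introduced gene and do not show the mutation. The label of liver cancer cells was checked on marker lists. The keratins KRT8 and KRT18 were at 172 ± 2.94 and 258 ± 6.17 CPM in Yes WT. The other epithelial markers were low, with CDH1, ESRP1 and KRT19 at 3.35, 0.983 and 0.943 CPM in Yes WT. EPCAM and CLDN4 had at most 11 and 1 counts in any library. ALB, the defining hepatocyte product, had at most 10 counts in any library. The 10 hepatocyte markers together reached 3.88 to 4.64 CPM in Yes WT and 1.71 to 3.49 CPM in Yes T348I. Leukocyte markers (1.06 to 3.36 CPM in sum over all libraries, CD3E at 0) and endothelial markers (0.615 to 1.53 CPM, TEK, CLEC4G and LYVE1 at 0) were near absent. Of 9 stellate cell and fibroblast markers 5 were tested, and the list summed to 255 to 279 CPM in Yes WT and 279 to 294 CPM in Yes T348I, nearly all from RGS5 and COL1A1. LUM and DES had at most 3 counts in any library. The part of such cells in the results was not tested.

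The matricellular genes split into 3 with a large rise, 3 with a clear fall and 2 with small differences. CCN1, CCN2 and THBS1 were 3.16-, 3.32- and 2.73-fold higher in Yes T348I. The log2 ratios given below are fitted values of Yes T348I over Yes WT. THBS3, SPP1 and THBS2 were at 47.8%, 50.8% and 62.7% of their Yes WT levels. SPARC was 1.13-fold higher and TNC at 84.4%. In all 8, 4 higher and 4 lower, the libraries of the groups did not overlap, as in 59.5% of all genes tested (29.9% higher and 29.7% lower). Of all genes tested, the edgeR fit called 55.3% at an adjusted p under 0.05 (28.0% higher and 27.3% lower). Nothing is read from the count of members, since the members were named with this contrast known. A change of at least 2-fold was less common, in 4.08% of genes tested, and CCN1, CCN2, THBS1 and THBS3 were past it. The median log2 ratio of the 8 was -0.03, against -0.01 over all genes tested.

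**Figure D2:**
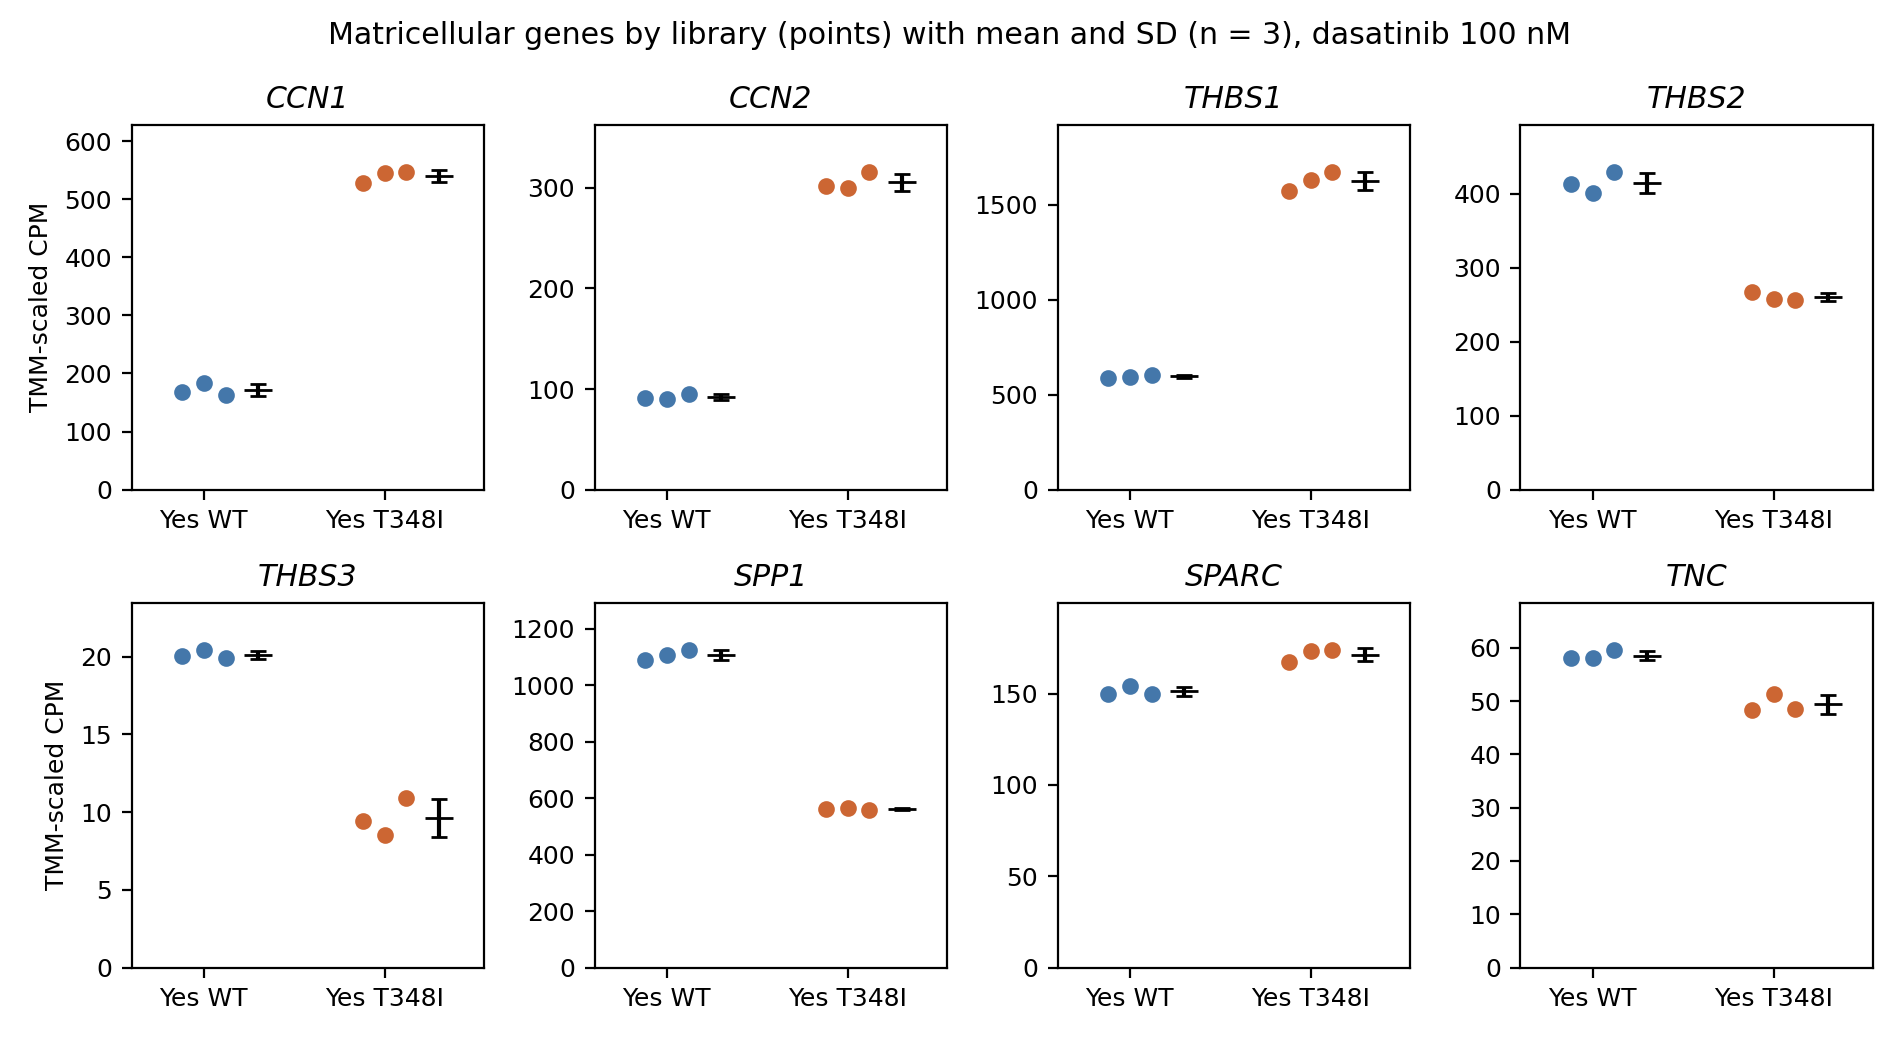
TMM-scaled CPM of each matricellular gene in each library (points), with the mean and SD of the 3 libraries beside them. Each panel has its own axis from 0. CCN1, CCN2 and THBS1 are far higher in Yes T348I, THBS2, THBS3 and SPP1 lower, and the gaps in SPARC and TNC are small.

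The CCN genes encode secreted cysteine-rich proteins that bind integrins and heparan sulfate. CCN1 (CYR61 in GENCODE 29, ENSG00000142871.16, GRCh38 chromosome 1, 85580761 to 85583962, 5 exon blocks) was at 168, 183 and 163 CPM in Yes WT replicates 1 to 3. It was at 529, 546 and 547 CPM in Yes T348I replicates 1 to 3. The lowest Yes T348I library was 189% above the highest Yes WT library. It had a log2 ratio of 1.66 ± 0.04 (SE), the 14th highest of the 14723 genes tested. CCN2 (CTGF, ENSG00000118523.5, chromosome 6, 131948176 to 131951373, minus strand) was at 90.8, 89.8 and 95.4 CPM in Yes WT against 302, 299.9 and 316 in Yes T348I. Its groups lay further apart than those of CCN1, by 214% at the nearest libraries. Its log2 ratio was 1.73 ± 0.04 (SE), the 10th highest. Per kilobase of exon, CCN1 stood at 1.78 ± 0.158 times CCN2 in Yes WT and 1.68 ± 0.0433 times in Yes T348I (SD, n = 3 each). The libraries of the groups overlapped in this ratio, so both CCN genes were higher by about the same factor, and CCN1 was the more abundant in both groups.

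The rest of the family was near the detection limit. CCN3, CCN4 and CCN6 had no library above 8, 3 and 0 counts, too few to test. CCN5 was at 1.04 ± 0.193 CPM in Yes WT against 1.22 ± 0.266 in Yes T348I, with overlapping libraries (edgeR adjusted p = 0.494).

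The thrombospondins did not move together. Thrombospondins are large calcium-binding glycoproteins, of which THBS1 and THBS2 form trimers with anti-angiogenic repeats and bind CD36 and CD47, while THBS3 belongs to the pentameric subgroup. THBS1 (ENSG00000137801.10, chromosome 15, 39581079 to 39599466) was at 588, 594 and 606 CPM in Yes WT against 1575, 1632 and 1672 in Yes T348I. The log2 ratio was 1.45 ± 0.03 (SE), 34th from the top, and the lowest Yes T348I library was 159.7% above the highest Yes WT library. THBS2 (ENSG00000186340.14, chromosome 6, 169215780 to 169254044, minus strand) was at 414, 402 and 429 CPM in Yes WT against 267, 257 and 257 in Yes T348I. The highest Yes T348I library was 33.6% below the lowest Yes WT library, and the log2 ratio was -0.67 ± 0.03 (SE). THBS3 (ENSG00000169231.13, chromosome 1, 155195588 to 155209051, minus strand) was far lower, at 20.0, 20.4 and 19.9 CPM in Yes WT against 9.43, 8.50 and 10.9 in Yes T348I, on 295 to 328 and 124 to 184 counts. The groups lay 45.2% apart at their nearest libraries. Its log2 ratio was -1.07 ± 0.09 (SE), with the widest error of the 8 genes.

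Set against each other, the abundant thrombospondins went from even levels to an excess of THBS1. Per kilobase of exon, THBS1 stood at 0.994, 1.04 and 0.989 times THBS2 in the Yes WT libraries and at 4.13, 4.44 and 4.56 times in Yes T348I. Their levels per length overlapped in Yes WT and lay apart in Yes T348I. THBS4 and COMP, which encode the other pentameric thrombospondins, had at most 8 and 2 counts in any library.

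SPP1 was the most abundant of the 8 per length in both groups. It encodes osteopontin, a phosphoprotein that binds integrins and CD44. SPP1 (ENSG00000118785.13, chromosome 4, 87975650 to 87983426) was at 1089, 1108 and 1124 CPM in Yes WT against 563, 566 and 559.8 in Yes T348I. Every Yes T348I library lay at least 48.0% below the lowest Yes WT library. The log2 ratio was -0.98 ± 0.03 (SE), and its libraries agreed most closely of all 8 genes, with a standard deviation of log2 CPM within groups of 0.02. The median over all genes tested was 0.08, and of the 8 only THBS3 (0.13) was above it. SPP1 was 96th in level among the genes tested, so that median is not from genes of like level. In RNA of a whole culture, fewer cells with a transcript and less of it per cell cannot be told apart. IBSP, DMP1, MEPE and DSPP, its relatives of bone and tooth in the same gene cluster, had at most 1 count in any library.

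SPARC and TNC differed little. SPARC (osteonectin, ENSG00000113140.10, chromosome 5, 151661096 to 151687165, minus strand) encodes a collagen-binding glycoprotein. It was at 150.0, 154 and 149.9 CPM in Yes WT against 167, 173 and 174 in Yes T348I, a log2 ratio of 0.18 ± 0.04 (SE). The lowest Yes T348I library was 8.47% above the highest Yes WT library. TNC (ENSG00000041982.15, chromosome 9, 115019578 to 115118257, minus strand) encodes tenascin C, a hexameric glycoprotein of wound and tumour matrix. It was at 58.0, 58.1 and 59.5 CPM in Yes WT against 48.3, 51.4 and 48.4 in Yes T348I, a log2 ratio of -0.25 ± 0.05 (SE), with a gap of 11.4% between the nearest libraries. Both values are close to the median absolute log2 ratio of 0.23 over all genes tested.

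**Figure D3:**
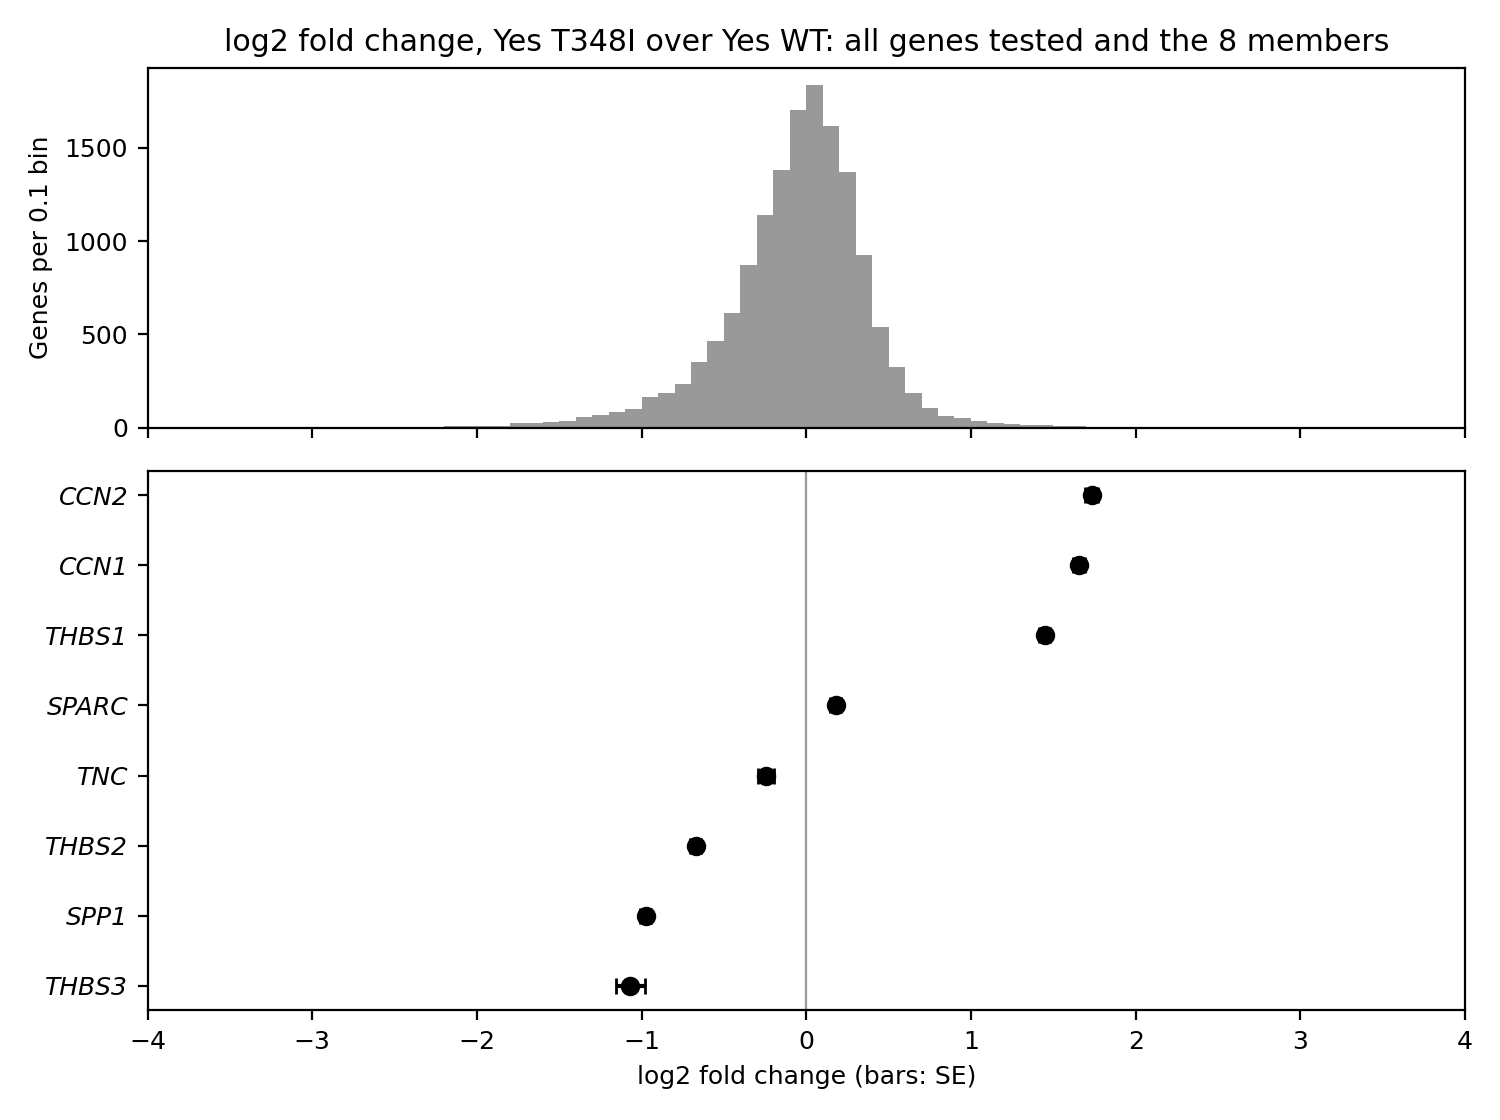
Upper panel, number of tested genes per bin of log2 ratio (Yes T348I over Yes WT). Lower panel, log2 ratio of the 8 matricellular genes with SE bars, on the same axis. CCN2, CCN1 and THBS1 lie at 1.45 to 1.73, far out in the upper tail, SPARC and TNC within the bulk of genes, and THBS2, SPP1 and THBS3 at -0.67 to -1.07.

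Levels of different genes were compared as CPM per kilobase of annotated exon. In Yes WT, SPP1 was at 477 ± 7.64 (SD, n = 3), then CCN1 at 69.8 ± 4.30, THBS1 at 65.1 ± 1.03, THBS2 at 64.7 ± 2.17, CCN2 at 39.3 ± 1.26, SPARC at 31.3 ± 0.505, TNC at 6.07 ± 0.0894 and THBS3 at 4.35 ± 0.0552. Of the neighbours in this order, THBS1 and THBS2 overlapped, and the other neighbours did not. CCN1 and THBS2, which are not neighbours, overlapped too, with the lowest CCN1 library at 66.3 and the highest THBS2 library at 67.0. In Yes T348I the order was SPP1 at 243 ± 1.31, CCN1 at 220.1 ± 4.10, THBS1 at 178 ± 5.33, CCN2 at 131 ± 3.67, THBS2 at 40.6 ± 0.862, SPARC at 35.5 ± 0.747, TNC at 5.12 ± 0.180 and THBS3 at 2.08 ± 0.265, with no overlap between neighbours. SPP1 thus stood at 6.84 times the next gene in Yes WT and at 1.10 times the next gene in Yes T348I, and CCN2 and THBS2 changed places. The length used is the union of all annotated exons, which understates a gene whose main transcript is shorter.

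**Figure D4:**
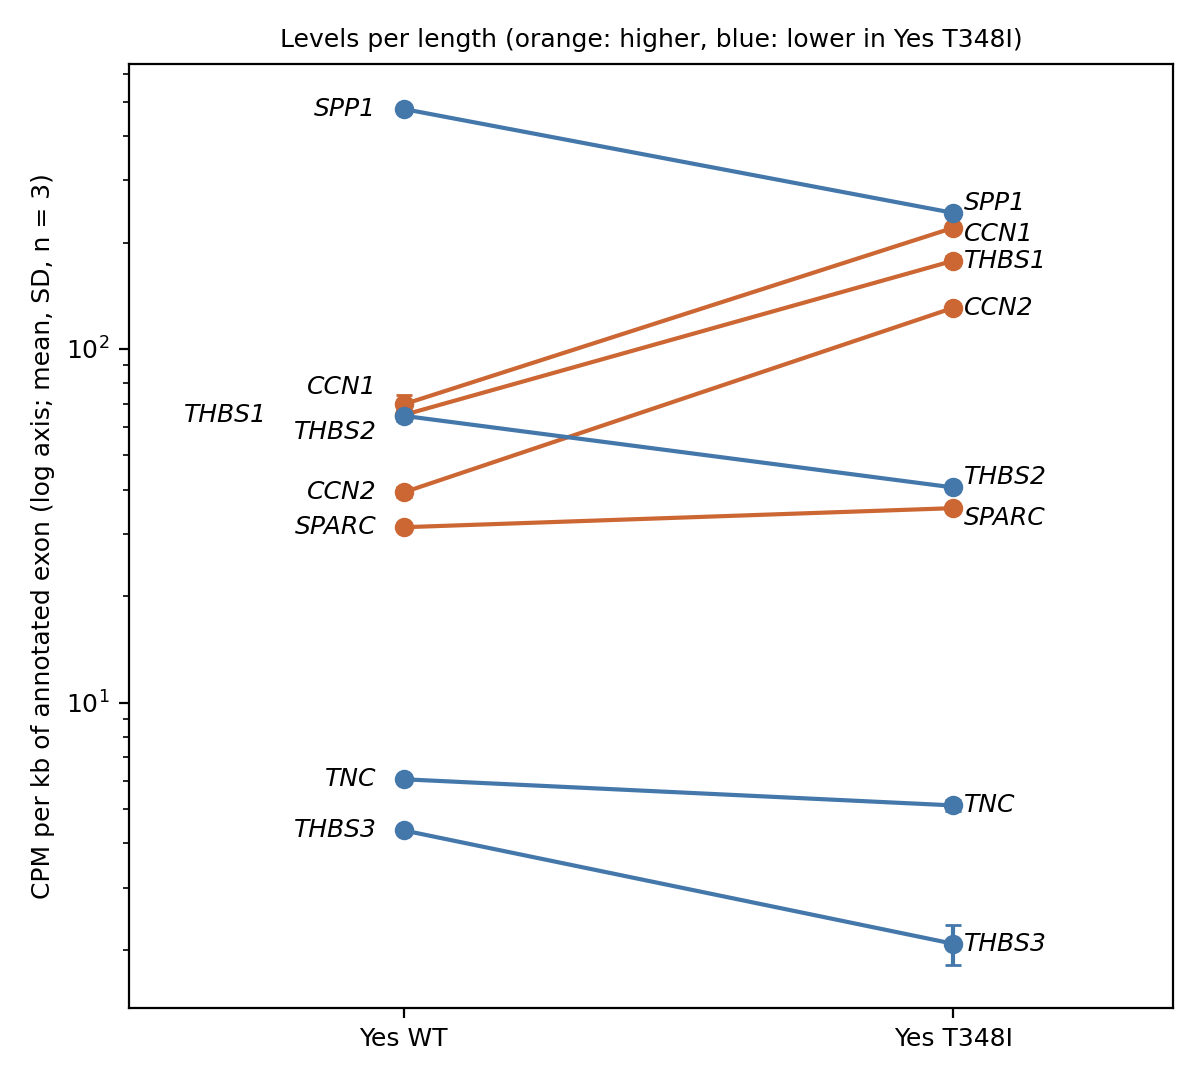
Mean CPM per kilobase of annotated exon in each group (log axis, SD bars, n = 3), joined by a line for each gene. SPP1 falls from 477 to 243 while CCN1 climbs from 69.8 to 220.1, and the lines of CCN2 and THBS2 cross.

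Summed over the 8 genes, matricellular transcripts took 2611 ± 35.1 CPM in Yes WT against 3526 ± 62.5 in Yes T348I (SD, n = 3 each). SPP1 gave 42.4% ± 0.127 of this sum in Yes WT and THBS1 22.8% ± 0.0729. In Yes T348I, THBS1 gave 46.1% ± 0.570 and SPP1 16.0% ± 0.331. CCN1 and CCN2 went from 6.56% ± 0.436 and 3.52% ± 0.0797 to 15.3% ± 0.103 and 8.67% ± 0.163. These are shares of reads, in which long transcripts weigh more.

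Genes that overlap a member were read from GENCODE 29. THBS3 shares 1027 exon bases (22.2% of its exon length) with THBS3-AS1 and 146 with MTX1, both on the other strand. Counted without strand, reads in such stretches can belong to either gene and are not counted. THBS3 kept 54.7% of its strand-specific counts in Yes WT and 53.1% in Yes T348I. This loss is larger than the shared part of its exon length, and its cause was not tested. THBS3 had a log2 ratio of -1.10 ± 0.12 (SE) without strand, against -1.07 with it. MTX1, a mitochondrial import gene, was at 17.5 ± 0.344 CPM in Yes WT with a log2 ratio of 0.02 ± 0.08 (SE, edgeR adjusted p = 0.827). THBS3-AS1 had 1 to 7 counts per library.

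THBS1 shares 448 exon bases (4.89%) with FSIP1 and 411 (4.49%) with THBS1-AS1 on the other strand, and kept 90.8% of its counts without strand in Yes WT and 91.3% in Yes T348I. Its log2 ratio was then 1.46 ± 0.03 (SE). THBS1-IT1, a non-coding gene within an intron of THBS1 on the same strand, shares no exon base with it. It had 24, 21 and 28 counts in Yes WT and 67, 44 and 45 in Yes T348I, a log2 ratio of 1.01 ± 0.20 (SE, edgeR adjusted p = 4.08e-05). Its reads cannot be told apart from unspliced THBS1 RNA. FSIP1 had 17 to 31 counts per library (log2 ratio -0.48, adjusted p = 0.11), and THBS1-AS1 4 to 8 in Yes WT and 14 to 21 in Yes T348I. CCN2 shares 195 exon bases (8.34%) with the antisense gene AL133346.1, which had 6 to 8 counts in Yes WT and 18 to 28 in Yes T348I, and its log2 ratio was 1.75 ± 0.04 (SE) without strand. Reads on the strand opposite to CCN2 came to 1.23% ± 0.652 of its own counts in Yes WT and 1.37% ± 0.220 in Yes T348I, and those opposite to THBS1 to 1.74% ± 0.531 and 1.52% ± 0.361 (SD, n = 3 each). As a share of sense counts they differed by less than the spread between libraries, and antisense transcripts and strand errors of the library were not told apart. THBS2, SPARC and TNC overlap further genes on the other strand, THBS2-AS1, CLMAT3 and DELEC1, which had at most 10, 1 and 6 counts. CCN1 and SPP1 overlap none. Without strand, the 4 rises and 4 falls kept their directions.

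Genes with the most similar pattern over the 6 libraries were found by the root mean square difference of centred log2 CPM, among 9631 genes of at least 10 CPM. The measure mostly reflects the difference between the groups. Among the 3 genes nearest to CCN2 were CD274 (0.07), which encodes PD-L1, and CCN1 (0.08). Among those nearest to CCN1 were CCN2 (0.08) and CD274 (0.11). THBS1 was nearest to EDN1 (0.06), which encodes endothelin, FOSL1 (0.08) and KRT80 (0.09). SPP1 lay by ERMP1, KYNU and LGR4 (0.02, 0.02 and 0.03), and THBS2 by PERP, MUSK and KANK2 (0.02 each). THBS3 lay by SPRY1, SPRY4 and MEG3 (0.06, 0.07 and 0.08). Of these, SPRY1 and SPRY4 encode Sprouty inhibitors of receptor tyrosine kinase signalling. SPARC (SWAP70, ZNF207 and VPS37A) and TNC (SCARB2, SARAF and UBXN4) had neighbours at 0.01 each.

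Related genes were then counted in lists drawn up with earlier results of these data known, with changes as log2 ratios ± SE, and each count is to be read beside the 28.0% of all tested genes that were higher and the 27.3% that were lower. Of 23 other matricellular genes 7 had enough counts to be tested, of which 3 rose and 2 fell, with a median log2 ratio of 0.09, and the other 16 had at most 15 counts in any library. FSTL1, a secreted relative of SPARC, rose from 242 ± 4.51 to 477 ± 4.41 CPM, a log2 ratio of 0.98 ± 0.03 (SE, edgeR adjusted p = 5.87e-27). TGFBI, an integrin ligand induced by TGF-beta, passed by little at 0.09 ± 0.03 (SE, adjusted p = 0.0166), and POSTN (periostin) at 0.74 ± 0.31 (SE, adjusted p = 0.0396) from 0.749 CPM. Only 1 of the 3 rises was called without Yes WT replicate 2, without Yes T348I replicate 1, with upper quartile or library size scaling, or with a minimum count of 30. POSTN was also not called without Yes WT replicate 1 or Yes T348I replicate 2 or 3, without a low-count filter, or with DESeq2 (adjusted p = 0.158). TNXB, a relative of TNC, fell from 4.26 ± 0.130 to 1.66 ± 0.292 CPM (log2 ratio -1.32 ± 0.19 SE, adjusted p = 7.48e-08). FBLN5 fell as well, with a log2 ratio of -0.17 ± 0.06 (SE, adjusted p = 0.0161). With DESeq2 or without a low-count filter, FBLN5 was not called (adjusted p = 0.0791 and 0.102).

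Receptors of matricellular proteins went both ways. Of 17 tested out of 21, 4 rose and 9 fell, with a median log2 ratio of -0.14. LRP1, an endocytic receptor that takes up thrombospondins and CCN2, fell from 48.9 ± 2.23 to 22.2 ± 0.608 CPM (log2 ratio -1.14 ± 0.06 SE, edgeR adjusted p = 3.69e-20). CD44, which binds osteopontin, fell by 0.27 ± 0.03 (SE), and CD36, which binds thrombospondin repeats, by 0.78 ± 0.12 (SE) on the log2 scale. CD47, the other thrombospondin receptor, rose by a log2 ratio of 0.13 ± 0.04 (SE, adjusted p = 0.011). CD44, CD36 and CD47 were chosen as the named partners of members after their values were seen. Integrin subunits moved both ways. ITGB3, ITGA2 and ITGA5, named after their values were seen, fell, with log2 ratios of -0.49 ± 0.11, -0.32 ± 0.04 and -0.14 ± 0.05 (SE). ITGAV, the alpha chain shared by many receptors of CCN1, CCN2 and osteopontin, rose by 0.15 ± 0.03 (SE), ITGB1 by 0.17 ± 0.03 (SE) and ITGB6 by 0.76 ± 0.07 (SE), while ITGB5, a partner of ITGAV, fell by 0.59 ± 0.04 (SE) and ITGA6 by 0.30 ± 0.03 (SE).

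Of 13 tested enzymes that modify or cleave these proteins (15 listed), 9 fell and 2 rose (median log2 ratio -0.20). The metalloproteases MMP2 and MMP14 fell, with log2 ratios of -1.08 ± 0.13 and -0.76 ± 0.05, as did BMP1, a procollagen protease, at -0.35 ± 0.05. ADAMTS1, which can cleave THBS1 and THBS2, rose from 9.14 ± 0.497 to 21.9 ± 0.166 CPM (log2 ratio 1.26 ± 0.08 SE, edgeR adjusted p = 1.15e-16). MMP3 rose from 0.687 ± 0.225 to 2.57 ± 0.387 CPM. Of the enzymes that put sugars on thrombospondin repeats, POFUT2 and DPY19L1 fell by 0.20 ± 0.06 (SE) and 0.16 ± 0.04 (SE), and B3GLCT and DPY19L3 did not pass, at 0.01 ± 0.09 (SE) and -0.09 ± 0.05 (SE). FAM20C, the kinase that phosphorylates osteopontin, fell by 0.25 ± 0.07 (SE). These sugar and phosphate enzymes were named after their values were seen.

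Transcriptional regulators known to act on CCN and thrombospondin genes were all expressed, and of 13 tested 6 rose and 5 fell (median log2 ratio 0.01). Among the TEAD factors, TEAD4 rose from 21.7 ± 0.992 to 33.5 ± 0.883 CPM (log2 ratio 0.63 ± 0.06 SE, edgeR adjusted p = 3.01e-11), and TEAD1 rose by 0.23 ± 0.03 (SE), while TEAD2 and TEAD3 fell by 0.29 ± 0.05 (SE) and 0.29 ± 0.08 (SE). YAP1 did not pass, at a log2 ratio of -0.06 ± 0.04 (SE, adjusted p = 0.16). The TAZ gene, WWTR1, was higher by 0.14 ± 0.03 (SE, adjusted p = 0.000497). YAP1, WWTR1, TEAD1 and TEAD3 were named after their values were seen. VGLL4, a TEAD-binding repressor, fell by 0.31 ± 0.05 (SE). SRF and its coactivator gene MRTFA rose by 0.50 ± 0.05 (SE) and 0.37 ± 0.05 (SE), and MRTFB fell by 0.58 ± 0.05 (SE).

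Genes of TGF-beta supply and response were mixed, with 4 of 13 tested higher and 6 lower (median log2 ratio -0.08). TGFB2, a TGF-beta ligand, rose by 0.87 ± 0.04 (SE, edgeR adjusted p = 2.04e-22) and PMEPA1 by 0.42 ± 0.03 (SE). LTBP1 and LTBP3, which hold TGF-beta latent in the matrix, fell by 0.76 ± 0.05 (SE) and 0.37 ± 0.05 (SE), and the receptor gene TGFBR2 by 0.36 ± 0.04 (SE).

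Structural proteins that matricellular proteins bind also went both ways, with 5 of 13 tested higher and 7 lower (median log2 ratio -0.22). COL1A2 and COL3A1 of the interstitial collagens fell, with log2 ratios of -0.63 ± 0.03 and -0.76 ± 0.05 (SE), as did fibronectin (FN1) at -0.39 ± 0.03. COL1A1, also an interstitial collagen gene, was called higher by 0.15 ± 0.04 (SE, edgeR adjusted p = 0.00415), with overlapping libraries. It was named after its value was seen. COL5A1, COL5A2 and the basement membrane gene COL4A1 rose by 0.83 ± 0.05 (SE), 0.25 ± 0.03 (SE) and 0.59 ± 0.04 (SE).

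**Figure D5:**
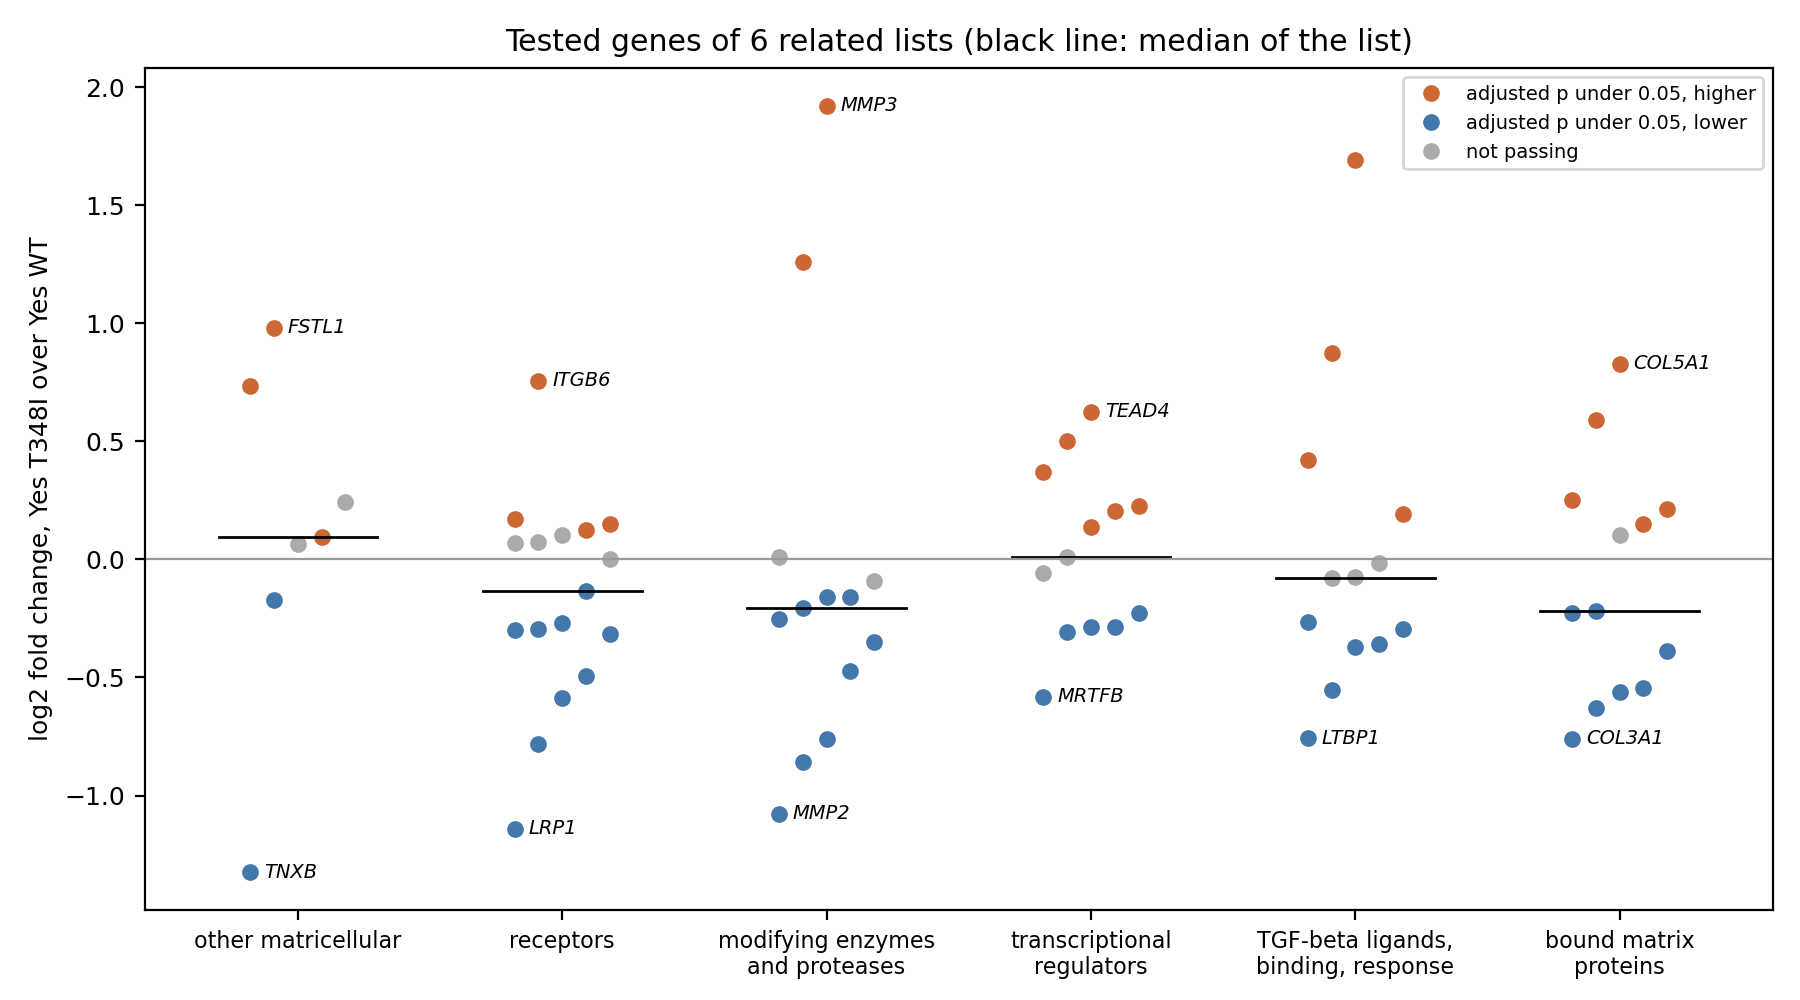
log2 ratio of each tested gene in 6 lists of related genes (points), with the median of each list as a black line. Colours give the edgeR call at an adjusted p under 0.05, and the lowest and highest gene of each list are named, except the highest of the TGF-beta list. Every list holds genes that rose and genes that fell, from TNXB at -1.32 to MMP3 at 1.92.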

How the data were processed

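The authors deposited raw read counts per gene, 1 file per library, with Ensembl identifiers and 3 count columns (unstranded, forward, reverse). STAR 2.5.1b, Trimmomatic 0.35, CASAVA 1.8.2 and GRCh38 are named per the submitters' processing notes, with no role. Which gene annotation they used was not given in the sources used here. Analysis took the reverse-strand counts (forward counts were 6.13% to 6.59% of these), without the 4 summary lines. Symbols came from a table of gene names, and positions, exon lengths and overlaps from GENCODE 29 (GRCh38). Promoter windows came from RefSeq (GRCh38.p14).

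Counts were analysed in R 4.3.3 with edgeR 4.0.16. Genes passed filterByExpr (minimum count 10), TMM factors were applied, and the groups were compared by the quasi-likelihood test without covariates. Benjamini-Hochberg adjustment ran over all genes tested (threshold 0.05). The SE is the size of the log2 ratio divided by the square root of F. On data simulated for this comparison over 14542 genes, the test recovered 47.7%, 83.1% and 96.9% of genes changed 1.2-, 1.5- and 2-fold. Of 157 calls, 9 were false. The simulation changed 65 tested genes at each fold, a far smaller share than the 55.3% called in the data. How these rates differ at the larger share was not tested. Replicate numbers are only numbers in the titles.

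The members and lists were chosen with earlier results of these data known. Named are the members, YES1, overlapping genes, the 3 nearest patterns of each member, and up to 3 rising and 3 falling genes of each list with the lowest adjusted p, with exceptions marked. A few genes that this rule picks are not reported here. The alternatives were 3 scalings, 2 count filters, unstranded counts, a replicate block, DESeq2 1.42.0 and leaving out each library. A protein comparison planned for the members was not run.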

Additional observations from a re-analysis of the deposited data

How the results depend on the processing

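The 8 matricellular genes kept their directions under all 14 alternatives run. With upper quartile factors the log2 ratios were 1.41 (THBS1), -0.71 (THBS2), -1.02 (SPP1), 0.14 (SPARC) and -0.29 (TNC), and with library size only 1.41 (THBS1), -1.01 (SPP1) and 0.14 (SPARC). Under both scalings all 8 log2 ratios were lower than in the main fit. The median over all genes tested was -0.05 under each of them, against -0.01 in the main fit. SPP1 was at -0.95 with no low-count filter and -0.99 with a minimum count of 30. The causes were not tested. Of the other matricellular genes 1 rose under either of those scalings or with a minimum count of 30 (5 tested), and 1 to 3 when a library was left out, while 1 fell with DESeq2. With the replicate number as a block, the log2 ratios of CCN1, CCN2, THBS1 and SPP1 were 1.66, 1.73, 1.45 and -0.98. Deviations of same-numbered libraries from their group means had correlations of -0.03, 0.00 and -0.02, and the block moved no count by over 1.5 times. With 3 libraries per group, such correlations cannot exclude a shared culture or batch. Whether the numbers pair libraries is not in the labels. Genes under about 1 CPM, such as POSTN, rest on few reads.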

Other observations

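Marker genes of other cell types and of epithelium belong to no comparison above, except COL1A1, which is also in the list of structural proteins. Those named here were chosen after their values were seen. Their counts are to be read beside the 28.0% of all tested genes that were higher and the 27.3% that were lower. Of 5 tested epithelial markers 2 fell and none rose. CDH1, which encodes E-cadherin, fell from 3.35 ± 0.518 to 1.47 ± 0.298 CPM (SD, n = 3 each, log2 ratio -1.16, SE 0.21, edgeR adjusted p = 8.47e-06), and ESRP1, an epithelial splicing factor, from 0.983 ± 0.261 to 0.364 ± 0.0931 CPM. KRT8 and KRT18, the keratins of liver epithelium, did not pass, at log2 ratios of -0.07 (SE 0.04) and 0.02 (SE 0.04), nor did KRT19. Of 5 tested stellate cell markers 2 rose, 2 fell and 1 did not pass. RGS5 and COL1A1 rose, with log2 ratios of 0.14 (SE 0.04) and 0.15 (SE 0.04), though the COL1A1 libraries of the groups overlapped. ACTA2, the smooth muscle actin of activated stellate cells, fell from 6.71 ± 1.05 to 4.47 ± 0.869 CPM, and RELN from 3.90 ± 0.599 to 2.13 ± 0.423 CPM. LRAT, which esterifies retinol, did not pass, at -0.09 (SE 0.12). Of the 2 tested hepatocyte markers, TF (transferrin) fell from 2.19 ± 0.639 to 0.785 ± 0.523 CPM and SERPINA1 did not pass, at a log2 ratio of 0.25 (SE 0.33). The single tested leukocyte marker, the monocyte receptor gene CD14, fell from 2.43 ± 0.279 to 0.721 ± 0.467 CPM. The single tested endothelial marker, PECAM1, fell from 0.847 ± 0.115 to 0.194 ± 0.169 CPM, on 11 to 16 counts in Yes WT and 0 to 6 in Yes T348I.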
